A study of Mus musculus with 4 samples.

Results

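Hyaluronan, the lecticans and the link proteins build the aggregates that give cartilage its resistance to compression, and this account follows their transcripts in ATDC5 cells after knockdown of Chadl. The members were 10 mouse genes, and every probe set whose single annotated gene symbol was a member was taken. This gave 19 probe sets for 9 of the 10 genes, out of 45037 probe sets tested. Vcan had 5 probe sets, Cd44 had 4, Ncan, Hapln1 and Has2 had 2 each, and Acan, Bcan, Has1 and Has3 had 1 each. The link protein gene Hapln3 had 0 probe sets under this rule and was not analysed here.

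Hyaluronan is a long unsulfated sugar chain that the membrane enzymes of the HAS family make at the cell surface and push out of the cell. Lecticans (aggrecan, versican, neurocan and brevican) are chondroitin sulfate proteoglycans that bind hyaluronan through a globular domain at the amino-terminal end, and link proteins of the HAPLN family lock that contact in place. CD44 is a cell-surface receptor that holds hyaluronan at the cell. In cartilage aggrecan and HAPLN1 are the leading pair, versican is the lectican of condensing mesenchyme and many fibroblasts, and neurocan and brevican are known mainly from the nervous system.

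ATDC5 is a mouse chondrogenic cell line. All cells received 30 nM of a double-stranded RNA of 27-mer type with Lipofectamine 2000, and after 16 h the medium was replaced by differentiation medium. Total RNA was taken at 5 days. The 2 control arrays came from cells given a scrambled duplex and the 2 knockdown arrays from cells given a duplex against Chadl, the gene for chondroadherin-like. The labels report a single effective duplex, so no second duplex sets effects of Chadl apart from effects of the duplex itself, and they name no untransfected cells. The titles speak of biological replicates; whether these came from separate cultures is not stated, and the spread behind the p-values may therefore be technical. Values are RMA log2 signals, so a difference of 1 is 2-fold. RMA compresses the change of dim probe sets, and signals of different probe sets do not compare amounts of RNA. Percentiles of signal and words such as bright and dim place a probe set on the array, and sums of marker signals serve only to compare arrays. In RNA from whole cultures, fewer cells of a type and less RNA per cell cannot be told apart.

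The duplex sequence in the labels, 25 nucleotides long, defines the knockdown group. The 250 bases before the RefSeq start (GRCm38.p6) of Vcan, Hapln1 and Cd44 are shown because these genes had the member probe sets furthest from control. Capitals mark GC boxes (GGGCGG or its reverse complement CCGCCC).
Chadl duplex: acaagguagagaaacaaagagacca
Vcan upstream (chr13:89742513-89742762, minus strand): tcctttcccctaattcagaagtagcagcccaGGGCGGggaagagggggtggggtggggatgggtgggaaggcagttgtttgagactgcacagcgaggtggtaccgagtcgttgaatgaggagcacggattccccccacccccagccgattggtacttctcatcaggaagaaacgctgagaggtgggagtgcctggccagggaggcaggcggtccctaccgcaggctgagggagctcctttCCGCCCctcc
Hapln1 upstream (chr13:89540386-89540635, plus strand): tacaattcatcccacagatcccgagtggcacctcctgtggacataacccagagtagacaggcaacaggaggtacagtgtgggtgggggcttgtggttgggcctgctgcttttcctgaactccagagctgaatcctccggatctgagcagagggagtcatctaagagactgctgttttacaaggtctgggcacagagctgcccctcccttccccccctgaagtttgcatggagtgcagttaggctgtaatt
Cd44 upstream (chr2:102901666-102901915, minus strand): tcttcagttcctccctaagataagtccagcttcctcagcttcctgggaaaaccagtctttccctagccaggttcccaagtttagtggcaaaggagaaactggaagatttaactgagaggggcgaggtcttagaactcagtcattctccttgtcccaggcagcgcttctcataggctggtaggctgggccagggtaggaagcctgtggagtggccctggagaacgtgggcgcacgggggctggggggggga

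Vcan and Hapln1 are next to each other on mouse chromosome 13, and the window of Vcan was richer in G and C (62.4% against 54.4%), with 10 CpG dinucleotides against 2. The window of Cd44, on chromosome 2, held 56.4% G and C and 5 CpG dinucleotides. The medians over 32851 promoters of the same length were 52.4% G and C and 6 CpG dinucleotides. At all of these 3 genes the annotated RefSeq gene begins further upstream than the start used, so part or all of each window can lie inside a longer transcript. The table held promoters for 8 of the 10 members. Both strands were searched for a TATA box (TATAAA), a GC box, and sites of AP-1 (TGANTCA), TCF/LEF (CTTTGAT) and SOX (ACAATGG). Vcan had 2 GC boxes, and Hapln1 and Cd44 had none of the 5 motifs in these windows. A GC box was found in 32.7% of all promoters, a TATA box in 12.4%, and the other motifs in 6.75%, 3.21% and 3.02% in the order given. A match of letters is a description of the sequence and not a binding site.

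Chadl itself had 1 probe set, which read 4.91 and 4.84 in control and 4.29 and 4.64 after knockdown, a difference of -0.41 (SE 0.12) that did not pass over all probe sets (limma adjusted p = 0.608). The knockdown arrays differed more from each other than the controls did, with an SD of the log2 difference over probe sets of 0.19 against 0.109. Knockdown 1 lay further from the control mean than knockdown 2 for 15 of 19 member probe sets (78.9%) and for 57.2% of all probe sets. Of the chondrocyte markers, 13 of 13 were measured and 7 had a mean signal at or above the median of all probe sets (4.24). Sox9 read 7.52 and 7.47 in control and 7.50 and 7.49 after knockdown, and Col2a1 read 9.01 and 9.08 against 8.23 and 9.17. Comp, Chad and Col9a2 were among the chondrocyte markers below that median. Of the 13, 3 read lower on both knockdown arrays than on either control and 1 read higher (beside 19.9% and 18.6% of all probe sets). The lower ones were Col11a2 (-0.36), Sox5 (-0.25) and Chad (-0.09), and the higher one was Col11a1 (0.15). Of 7 osteoblast markers 5 were measured, since Runx2 and Alpl had no probe set under the rule. Of these 5, 4 read lower on both knockdown arrays than on either control (beside 19.9% of all probe sets). The linear signals of the 5 summed to 1649 and 1626 in the controls against 436 and 983 after knockdown. Ibsp carried most of that sum in the controls, with log2 signals of 10.15 and 10.15 against 7.02 and 9.01. Without it the other 4 summed to 511 and 493 against 306 and 466, so in knockdown 1 the other 4 carried most of the sum. Phex, the fifth marker, read 4.84 and 4.82 against 5.69 and 4.61. The summed chondrocyte markers read 1791 and 1844 against 1589 and 1987. Macrophage markers summed to 72.1 to 74.7 in control and 72.2 to 72.9 after knockdown, and endothelial markers to 66.8 to 69.3 and 71.5 to 73.3. Skeletal muscle markers summed to 108 to 110 in control and 107 to 109 after knockdown, and adipocyte markers to 59.9 to 64.5 and 65.9 to 66.1.

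As a group the members did not stand on one side of control. Over all probe sets 1 passed an adjusted p of 0.05 in limma (0.00222%), and 0 of the 19 member probe sets did, with adjusted p between 0.415 and 0.984. At an unadjusted p of 0.05, 3 member probe sets lay on the higher side and 2 on the lower side, beside 3.42% higher and 3.83% lower among all probe sets. All 3 higher ones belonged to Vcan, and the lower ones were 1 of Hapln1 and 1 of Cd44. Both knockdown arrays exceeded both controls for 5 member probe sets, beside 18.6% of all probe sets. Both lay below for 6, beside 19.9%. Among these 6, knockdown 2 lay only just below the lower control at 1449169_PM_at of Has2 (4.2990 against 4.2996) and at 1434376_PM_at of Cd44 (9.4891 against 9.4925). The median difference over the 19 was -0.05, and over all probe sets it was -0.0018. The median size of the difference, without its sign, was 0.13 for the members and 0.07 for all probe sets. Probe sets of 1 gene share their transcript, so these counts are not counts of independent genes.

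**Figure D1:**
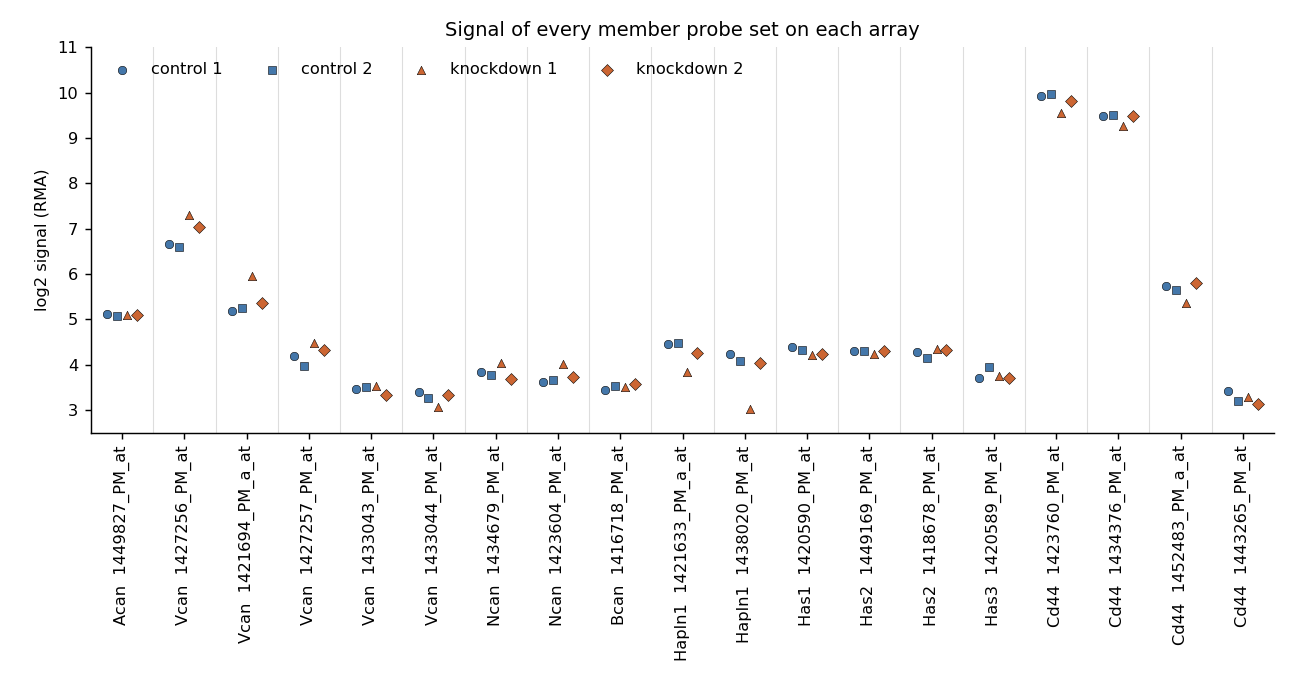
Log2 signal (vertical axis, RMA) of each of the 19 member probe sets on the 4 arrays; circles and squares are controls 1 and 2, triangles and diamonds knockdowns 1 and 2. Knockdown 1 stands apart from the other arrays at both Hapln1 probe sets, at 3.85 and 3.02, and at the Vcan probe set that reads 5.96 there.

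Versican was the lectican with the highest difference. Its brightest probe set, 1427256_PM_at at the 83.1th percentile of mean signal, read 6.65 and 6.61 in control, 7.31 in knockdown 1 and 7.04 in knockdown 2. Both knockdown arrays were high and the groups did not overlap, by a margin wider than either pair's own spread. Knockdown exceeded control by 0.55 on average (SE 0.10, 95% confidence interval 0.30 to 0.79, n = 2 arrays per group), 1.46-fold, with 1.6-fold in knockdown 1 and 1.33-fold in knockdown 2. This was the lowest p among the members (limma, unadjusted p = 0.00103), and it did not pass over all probe sets (adjusted p = 0.415). With the mean of the 5 Vcan probe sets in its place, the difference was 0.23 (adjusted p = 0.729, limma).

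The second Vcan probe set, 1421694_PM_a_at, read 5.19 and 5.25 in control and 5.96 and 5.36 after knockdown. Here most of the difference lay in knockdown 1, which was 1.67-fold above the control mean, while knockdown 2 was 1.1-fold above it. The third, 1427257_PM_at at the 49.8th percentile, read 4.19 and 3.96 against 4.47 and 4.33, with the controls 0.23 apart. Both knockdown arrays were again above both controls. The fitted differences of these probe sets were 0.44 (SE 0.18, adjusted p = 0.678, limma) and 0.33 (SE 0.11, adjusted p = 0.623, limma).

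The other Vcan probe sets were dim and had the opposite sign. Probe set 1433043_PM_at, at the 19.3th percentile, read 3.47 and 3.50 against 3.53 and 3.34. Probe set 1433044_PM_at, at the 12.1th, read 3.40 and 3.26 against 3.08 and 3.33. In both the groups overlapped, with differences of -0.05 and -0.12. RMA compresses differences at so low a signal, so these probe sets say little about versican transcripts.

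Aggrecan, the main proteoglycan of cartilage, gave the smallest difference of all members. Its only probe set read 5.12 and 5.08 in control and 5.09 and 5.09 after knockdown. All 4 arrays lay within the spread of the controls. The difference was -0.01 (SE 0.08), and its 95% confidence interval ran from -0.21 to 0.18. The signal was at the 66.2th percentile.

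The neural lecticans were dim. For Ncan, which encodes neurocan, probe set 1423604_PM_at read 3.62 and 3.67 in control and 4.02 and 3.73 after knockdown. Both knockdown arrays were above both controls, with knockdown 1 the higher. The difference was 0.23 (SE 0.11, 95% confidence interval -0.02 to 0.48). The other Ncan probe set, 1434679_PM_at, read 3.85 and 3.77 against 4.03 and 3.69, with knockdown 1 above and knockdown 2 below both controls. Bcan, which encodes brevican, read 3.44 and 3.52 against 3.50 and 3.58, with a difference of 0.06 (SE 0.08). These probe sets lay between the 21.4th and the 35.1th percentile of signal.

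Hapln1 encodes the cartilage link protein, and both its probe sets were lower in both knockdown arrays. Probe set 1421633_PM_a_at, at the 50.6th percentile of mean signal, read 4.46 and 4.47 in control, 3.85 in knockdown 1 and 4.27 in knockdown 2. The controls differed by 0.0086 and the knockdown arrays by 0.42, and the groups did not overlap. The difference was -0.41 (SE 0.14, 95% confidence interval -0.72 to -0.09), 1.33-fold lower, with an unadjusted p of 0.0188 and an adjusted p of 0.636 in limma.

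The other Hapln1 probe set, 1438020_PM_at, read 4.24 and 4.09 in control and 3.02 and 4.04 after knockdown. Knockdown 1 was 2.22-fold below the control mean, the largest single-array difference among the members, and knockdown 2 was 1.09-fold below it. The difference was -0.64 (SE 0.28, 95% confidence interval -1.30 to 0.02, adjusted p = 0.692, limma). This probe set lay at the 35.6th percentile of signal, where RMA compresses differences and single values are uncertain. Both probe sets had their lower value in knockdown 1, in which 4 of the 5 osteoblast markers also were lowest and Phex was highest. The chondrocyte markers Col2a1, Matn1 and Col9a1 also were lowest there, at -0.82, -0.77 and -0.68 from the control mean. So were Col11a2 (-0.42), Sox5 (-0.35), Col9a2 (-0.06) and Comp (-0.05). Sox9, Sox6, Col11a1, Chad, Matn3 and Snorc were not, at 0.01, 0.10, 0.10, -0.07, -0.09 and -0.09. The median of the 13 chondrocyte markers was -0.09 in knockdown 1 and 0.035 in knockdown 2. The part of the osteoblast and chondrocyte markers in this result was not tested.

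**Figure D2:**
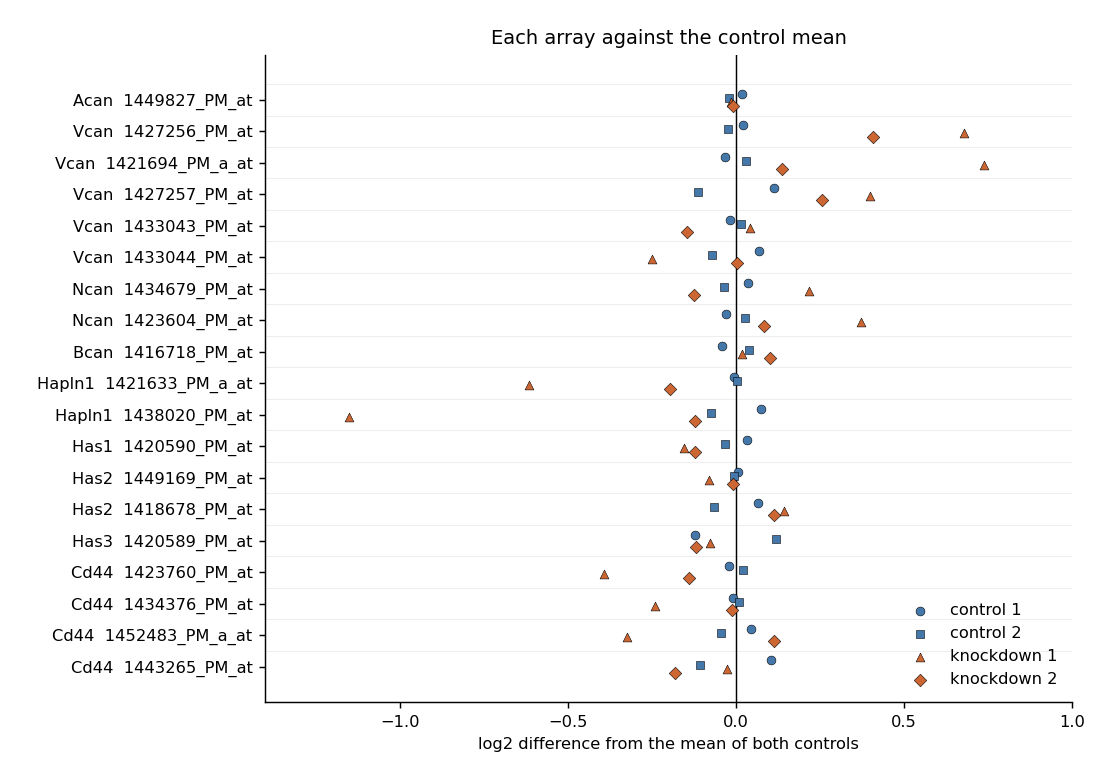
Log2 difference of each array from the mean of both controls (horizontal axis) for each member probe set; symbols as in the plot of signals. The 3 brighter Vcan probe sets lie to the right in both knockdown arrays, both Hapln1 probe sets lie to the left, and Acan lies at 0.

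Each lectican gene has a link protein gene as its neighbour among protein-coding genes in RefSeq (GRCm38.p6): Acan with Hapln3, Vcan with Hapln1, Ncan with Hapln4 and Bcan with Hapln2. In the pair of Vcan and Hapln1 the lectican was higher and the link protein lower in both knockdown arrays at the brightest probe set of each. Hapln4, from the list of hyaluronan-binding genes, read 4.12 and 3.98 in control and 4.12 and 4.08 after knockdown. Hapln2, from the same list, read 3.96 and 3.96 against 3.94 and 3.88. Their differences were 0.06 (SE 0.09) and -0.05 (SE 0.08).

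The hyaluronan synthases showed differences of at most 0.14 in size. Has1 read 4.39 and 4.33 in control and 4.21 and 4.24 after knockdown, with both knockdown arrays below both controls. Its difference was -0.14 (SE 0.08, 95% confidence interval -0.33 to 0.05, adjusted p = 0.743, limma).

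Has2 encodes the synthase known as the main one of chondrocytes and other mesenchymal cells, and its 2 probe sets had opposite signs. Probe set 1449169_PM_at read 4.31 and 4.30 against 4.23 and 4.30, a difference of -0.04 (SE 0.08). Probe set 1418678_PM_at read 4.28 and 4.15 against 4.35 and 4.33, a difference of 0.13 (SE 0.09). No direction can be given for Has2 from these values. Has3 read 3.70 and 3.94 against 3.74 and 3.70, and the groups overlapped. The 95% confidence intervals of the Has2 and Has3 probe sets together ran from -0.32 to 0.33, and all synthase probe sets were between the 32.4th and the 51.4th percentile of signal.

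Cd44, the hyaluronan receptor gene, had lower mean signals after knockdown at each of its 4 probe sets, by small amounts. Probe set 1423760_PM_at, at the 97.8th percentile, read 9.93 and 9.97 in control, 9.56 in knockdown 1 and 9.81 in knockdown 2. Both knockdown arrays were low and the groups did not overlap. The difference was -0.27 (SE 0.08, 95% confidence interval -0.45 to -0.08), 1.2-fold lower, with an unadjusted p of 0.0111 and an adjusted p of 0.596 in limma.

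The second bright Cd44 probe set, 1434376_PM_at, read 9.49 and 9.51 against 9.26 and 9.49. Knockdown 1 was low, and knockdown 2 lay 0.01 below the control mean. Probe set 1452483_PM_a_at read 5.73 and 5.64 against 5.36 and 5.80, so the knockdown arrays lay on opposite sides of the controls. The dimmest, 1443265_PM_at, read 3.42 and 3.21 against 3.29 and 3.13. The 4 mean differences lay between -0.27 and -0.10, and in 2 of the 4 probe sets the groups overlapped. The mean of the 4 probe sets gave -0.15 (adjusted p = 0.757, limma).

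**Figure D3:**
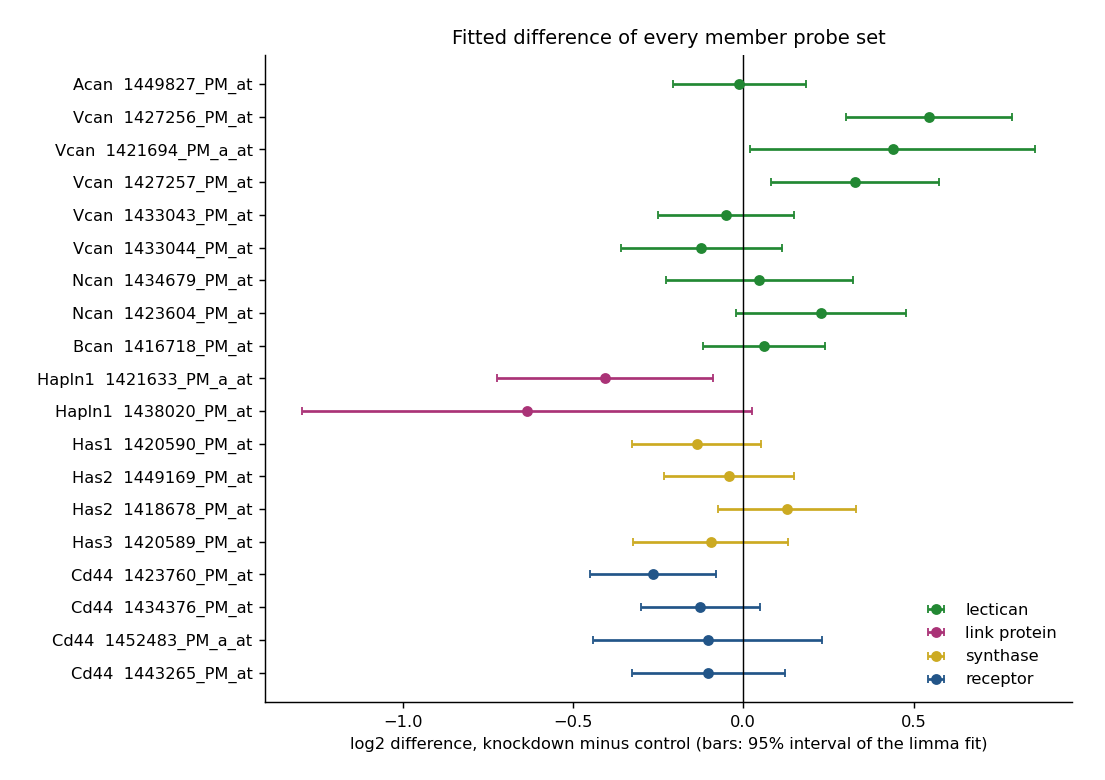
Knockdown minus control in log2 (horizontal axis) for each member probe set, with the 95% confidence interval of the limma fit as bars and colours for lecticans, link protein, synthases and receptor. The intervals of 3 Vcan, 1 Hapln1 and 1 Cd44 probe sets leave out 0 before adjustment, and none of the 19 passed after it.

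The number of calls depended on whether both knockdown arrays were used and on which of them was left out. Without knockdown 1, limma passed 1669 probe sets (3.71%) and 2 of the 19 member probe sets, the brightest of Vcan (difference 0.41, adjusted p = 0.000303) and the brightest of Cd44 (-0.14, adjusted p = 0.00462). Without knockdown 2 it passed 5749 probe sets (12.8%) and 9 member probe sets. These were 3 of Vcan (0.40 to 0.74), 1 of Ncan (0.37), 2 of Hapln1 (-1.15 and -0.62) and 3 of Cd44 (-0.39 to -0.24). In these fits the lone knockdown array is taken to vary like the controls, whose spread was narrower. Without control 1 and without control 2, the brightest Vcan probe set differed by 0.57 and 0.52. In the same fits the brightest of Hapln1 differed by -0.41 and -0.40, and the brightest of Cd44 by -0.29 and -0.24.

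**Figure D4:**
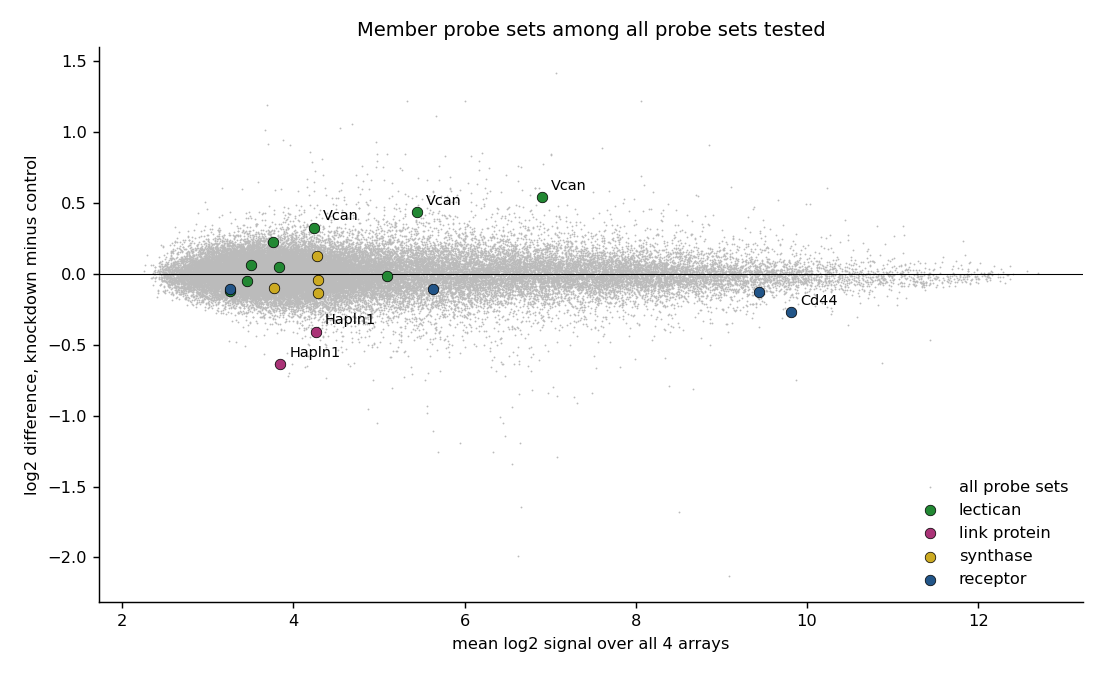
Knockdown minus control in log2 (vertical axis) against mean log2 signal over the 4 arrays (horizontal axis) for all 45037 probe sets in grey and the 19 member probe sets in colour; members further than 0.25 from 0 are named. Among the members, Vcan at 0.33 to 0.55 and Hapln1 at -0.64 and -0.41 lie furthest from 0. Other probe sets of like signal lie further out, and Acan and the synthases lie nearer to 0.

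The other genes of the pathway were taken as 7 lists, each gene by its brightest probe set. Of 73 genes measured, 0 passed over all probe sets in limma, 5 lay higher and 1 lay lower with an unadjusted p under 0.05 (beside 3.42% and 3.83% of all probe sets), and the median difference was 0.02.

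Genes of hyaluronan breakdown and uptake gave no gene at an unadjusted p of 0.05 (10 measured, 0 passed in limma, median 0.09). Hyal2, a hyaluronidase, read 5.46 and 5.56 in control and 5.55 and 5.70 after knockdown. Cemip, which encodes a protein needed for hyaluronan breakdown, read 9.26 and 9.30 against 9.07 and 9.54, on both sides of the controls. The receptor gene Hmmr, which also marks dividing cells, differed by -0.04 and the receptor gene Layn by 0.07.

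Among 11 genes of hyaluronan binding and crosslinking, 5 read higher on both knockdown arrays than on either control and 1 read lower on both, beside 18.6% and 19.9% of all probe sets. Ptx3 encodes pentraxin 3, which organises hyaluronan in the cumulus matrix, and it read 6.64 and 6.53 in control, 8.11 in knockdown 1 and 6.74 in knockdown 2. Knockdown 1 stood apart from the other 3 arrays. The difference was 0.84 (SE 0.37, adjusted p = 0.691, limma). Tnfaip6, whose product TSG-6 moves heavy chains onto hyaluronan, read 7.94 and 7.97 against 8.08 and 8.01. The heavy-chain gene Itih2 differed by 0.13. In this list 0 genes had an unadjusted p under 0.05, and the median was 0.06.

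The 8 genes of UDP-sugar supply, which make the building blocks of the chain, were all at or above the median signal. Ugdh encodes the enzyme that makes UDP-glucuronic acid, and it read 9.84 and 9.88 against 9.99 and 9.96. Ugp2, the step before it, read 9.20 and 9.25 against 9.40 and 9.33. Both knockdown arrays were above both controls in each, with differences of 0.11 (SE 0.04) and 0.14 (SE 0.05). The adjusted p was 0.666 for each in limma. Gnpnat1, on the path to UDP-N-acetylglucosamine, lay the other way (-0.15, SE 0.07). At an unadjusted p of 0.05 the list had 2 genes on the higher side and 0 on the lower, and its median was -0.01.

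Of the 10 genes of lectican cleavage, which include the inhibitor Timp3, 1 was higher at an unadjusted p of 0.05 and 0 were lower. It was the aggrecanase gene Adamts4, which read 6.36 and 6.28 in control and 6.53 and 6.65 after knockdown. This was 0.27 higher (SE 0.09, adjusted p = 0.623, limma), and the groups did not overlap. Adamts1, a protease gene of the same family, read 7.21 and 7.26 against 7.44 and 7.33, and Adamts5, the main aggrecanase of mouse cartilage, read 5.84 and 5.69 against 5.89 and 5.98. Both knockdown arrays were above both controls in these 3 genes and below in 0 of the 10, beside 18.6% and 19.9% of all probe sets. The list's median was 0.08.

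The 9 lectican ligands measured had a median of -0.06, with 0 genes at an unadjusted p of 0.05. Tnc encodes tenascin C, a partner of the lectin domain of lecticans, and read 9.80 and 9.91 against 9.30 and 9.79. Its difference was -0.31 (SE 0.14, adjusted p = 0.697, limma), most of it in knockdown 1. Selp, the P-selectin gene, differed by 0.19 and the fibulin gene Fbln1 by -0.08, and in both the groups overlapped.

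Among 11 genes of CD44 partners and shedding, Tiam1 was the 1 gene at an unadjusted p of 0.05. It encodes an activator of the GTPase Rac and read 4.85 and 4.96 in control and 5.19 and 5.22 after knockdown (difference 0.30, SE 0.09, adjusted p = 0.596, limma). Moesin (Msn), which ties the CD44 tail to actin, read 9.93 and 9.88 against 9.77 and 9.89. The sheddase gene Adam17 differed by -0.15 with overlapping groups. The list's median was 0.02.

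The 14 genes that start, extend or sulfate chondroitin chains had a median of -0.09, with 1 gene on each side at an unadjusted p of 0.05. The higher one was Xylt2 (difference 0.19, SE 0.08, adjusted p = 0.678, limma), at the 30.8th percentile of signal, and the lower one was Chst11. Chst11, a chondroitin 4-sulfotransferase needed for cartilage growth, read 6.72 and 6.71 in control and 6.27 and 6.57 after knockdown (difference -0.29, SE 0.11, adjusted p = 0.666, limma). Csgalnact1, which starts the chondroitin chain, read 6.28 and 6.20 against 5.91 and 6.19. Chsy1, which extends it, read 9.45 and 9.41 against 9.15 and 9.42. Both knockdown arrays lay below both controls for 5 of the 14 and above for 2 (beside 19.9% and 18.6% of all probe sets), and the median was -0.18 in knockdown 1 and -0.03 in knockdown 2.

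**Figure D5:**
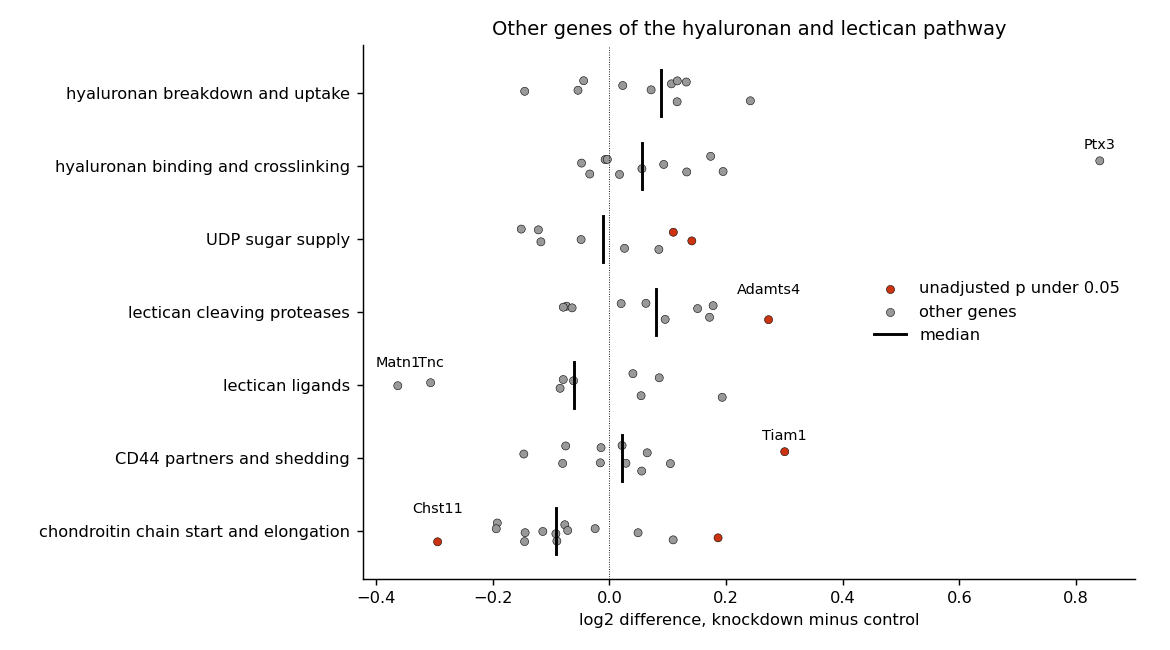
Knockdown minus control in log2 (horizontal axis) for each measured gene of the 7 pathway lists, spread vertically within a list for legibility, with the list's median as a black bar and genes at an unadjusted p under 0.05 in red. List medians lie between -0.09 and 0.09, and Ptx3 at 0.84 is the furthest point.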

How the data were processed

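Total RNA of 4 samples was profiled on Affymetrix mouse 3' expression arrays. The authors deposited 1 RMA value for each probe set on a log2 scale; RMA is named in the submitters' processing notes, its version is not given in the sources used here, and the log base was read from the range (2.17 to 12.72). RMA makes the arrays' distributions alike, which removes differences in total RNA. No further normalization was applied. After 104 array controls were left out, 45037 probe sets were tested, of which 28898 carried 1 gene symbol, 551 several and 15588 none in an annotation that can be old.

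The groups were compared by limma (version 3.58.1, R version 4.3.3) through lmFit and eBayes with a trend (2 residual and 5.32 prior degrees of freedom, two-sided, Benjamini-Hochberg over all probe sets, threshold 0.05), with no filter. An exact permutation of 2 against 2 arrays cannot go below p = 0.333. The number of arrays limits the precision. Members, lists and tests were chosen with earlier results of these data known. Named genes were all members and Chadl. From each pathway list they were up to 3 passing genes, or else the 3 of lowest unadjusted p at or above the median signal. Cemip, Xylt2, Hapln2, Hapln4 and the markers named were added after their values were seen, as was the osteoblast sum without Ibsp. On 20 simulated sets of 45037 probe sets with 200 changed, the fit recovered 22.8% of 1.41-fold, 96.6% of 2-fold and 100% of 4-fold changes. The simulated spread was drawn from the fitted model and was equal in both groups, which the real arrays lacked. These shares therefore need not hold for the real arrays, where Ibsp at 4.39-fold did not pass (adjusted p = 0.506, limma). Pathway genes without a probe set under the rule were not analysed here.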

Additional observations from a re-analysis of the deposited data

How the results depend on the processing

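With 2 arrays a group and unequal spread between the pairs, small differences of dim probe sets cannot be resolved here. Over all probe sets 1 passed an adjusted p of 0.05, also with quantile normalization, centring and the filter on dim probe sets. The number was 0 with 1 probe set per gene, with the mean of a gene's probe sets and without the trend, 3 with robust eBayes and at an adjusted p of 0.1, and 0 to 5749 on leaving out an array. Member probe sets past that threshold numbered 0 in all these settings except on leaving out an array, where they ran from 0 to 9. Those at an unadjusted p of 0.05, 5 in the report, numbered 3 with 1 probe set per gene, 1 with the mean of a gene's probe sets, and 1 to 11 on leaving out an array. With 1 probe set per gene and with the mean of a gene's probe sets, the members were 9 genes and not 19 probe sets. The share of all probe sets at an unadjusted p of 0.05 is given only for the main setting. Counts under the other settings, the replicate block included, therefore have no background to stand beside. Without a knockdown array, the lone one is taken to vary like the controls. The median member difference kept its sign throughout, from -0.05 to -0.0087. With the replicate number as a block, 2 probe sets passed, 0 of them members, and 6 member probe sets had an unadjusted p of 0.05; the arrays share only a number (correlation of same-numbered deviations 0.0117). For the brightest probe set of each gene, 96 of the values under other settings kept direction and side of the threshold, 5 passed it and 4 turned. With the mean of a gene's probe sets, Vcan moved from 0.55 to 0.23, Cd44 from -0.27 to -0.15 and Ncan from 0.05 to 0.14. Those that turned were Acan (-0.0313 to 0.008 on leaving out an array), Ncan (-0.123 to 0.216), Has3 (-0.217 to 0.0244) and Has2 with the mean of its probe sets (0.0428); beyond the arrays left out and the probe sets averaged, the cause was not tested. Those that passed were Vcan and Cd44 without either knockdown array and Hapln1 without knockdown 2 (-0.62).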
